A study of Mus musculus with 6 samples.

Results

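The 10 genes described here encode core components of endoplasmic reticulum-associated degradation (ERAD), the pathway that pulls misfolded proteins out of the endoplasmic reticulum (ER) for destruction. They were taken by symbol, as the rows of a table of 54532 genes that are named Derl1, Derl2, Derl3, Herpud1, Sel1l, Syvn1, Edem1, Edem2, Edem3 or Os9, and each symbol matched 1 row. The tissue sequenced was ear skin, taken from mice 3 months old. The knockout group (CKO, 3 libraries) carried the floxed Ufl1 allele on both chromosomes together with a KRT14Cre transgene (genotype Ufl1f/f KRT14Cre/+), in which the keratin 14 promoter drives Cre in basal keratinocytes and their progeny, while whole skin also holds cells without Cre. The control group (CTRL, 3 libraries) carried the floxed allele on 1 or both chromosomes with no Cre listed (Ufl1f/+ or Ufl1f/f), so all 6 libraries share a floxed allele, and effects of Cre itself and of losing Ufl1 cannot be told apart. Ufl1 encodes the E3 ligase that attaches the small modifier UFM1 to target proteins, many of them at the ER. The labels give no strain and do not state that the libraries are from different animals, so the spread behind each p-value may be technical.

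ERAD begins with recognition in the ER lumen. The EDEM proteins trim mannose from the glycans of misfolded glycoproteins, and the lectin Os9 delivers such proteins to Sel1l, the adaptor of the ubiquitin ligase Syvn1 (also called HRD1). The derlins are membrane proteins that work with this ligase in moving substrates to the cytosol, Herpud1 is a ubiquitin-like-domain protein that helps to assemble the complex, and the proteasome degrades the product. Several of these genes are textbook targets of the unfolded protein response, in which the factors ATF6 and XBP1 bind ER stress elements near transcription starts. Keratinocytes route many adhesion and basement membrane proteins through the ER.

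Promoter windows from RefSeq (GRCm38.p6, 250 bases before to 50 after a start) were found for 9 of the 10 genes, in 10 windows, since Derl2 has 2 annotated starts. Derl1 had no entry. Exact matches to the ER stress element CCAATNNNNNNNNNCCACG, in either orientation, were present in 2 of the 10 windows, those of Derl3 and Syvn1, and in 0.119% of all 32851 windows. The ER stress element II, ATTGGNCCACG, was present in the window of Herpud1 and in 0.0365% of all windows. The 3 windows with such a match, and that of Edem1 as a member without one, are shown for the 250 bases before the start. The windows lie at chr10:75893148-75893397 for Derl3, chr19:6046326-6046575 for Syvn1, chr8:94386179-94386428 for Herpud1 and chr6:108828391-108828640 for Edem1, all on the plus strand, 5′ to 3′, and capitals mark the matched element.
Derl3: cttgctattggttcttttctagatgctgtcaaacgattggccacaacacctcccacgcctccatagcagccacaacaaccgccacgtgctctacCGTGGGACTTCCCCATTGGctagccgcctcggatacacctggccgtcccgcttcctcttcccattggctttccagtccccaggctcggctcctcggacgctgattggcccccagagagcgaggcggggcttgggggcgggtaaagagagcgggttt
Syvn1: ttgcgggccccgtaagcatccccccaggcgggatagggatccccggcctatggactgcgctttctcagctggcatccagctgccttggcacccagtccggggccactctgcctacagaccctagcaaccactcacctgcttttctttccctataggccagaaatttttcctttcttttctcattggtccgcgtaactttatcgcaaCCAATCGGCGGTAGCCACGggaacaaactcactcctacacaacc
Herpud1: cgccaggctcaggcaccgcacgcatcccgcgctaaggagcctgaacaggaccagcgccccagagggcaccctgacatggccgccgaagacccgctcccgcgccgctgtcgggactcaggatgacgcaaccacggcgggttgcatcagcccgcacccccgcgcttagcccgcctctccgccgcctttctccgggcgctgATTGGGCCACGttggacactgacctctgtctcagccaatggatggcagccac
Edem1: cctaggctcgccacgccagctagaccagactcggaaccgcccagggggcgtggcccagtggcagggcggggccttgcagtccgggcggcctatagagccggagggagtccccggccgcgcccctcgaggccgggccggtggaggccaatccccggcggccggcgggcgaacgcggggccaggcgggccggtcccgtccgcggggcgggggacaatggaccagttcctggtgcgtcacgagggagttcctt

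The element of Derl3 runs from position -156 to -138 and reads in the reverse orientation, as the match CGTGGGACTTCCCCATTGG. That of Syvn1 runs from -44 to -26 as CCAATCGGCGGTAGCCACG, and that of Herpud1 from -52 to -42 as ATTGGGCCACG. The core CCACG alone, which both elements contain, was found on either strand in 9 of the 10 member windows and in 32.8% of all windows. The member windows were richer in G and C, with a median of 62.2% against 52.7% over all windows. The element core TGACGTGG, bound by XBP1, was absent from the 10 windows (0.676% of all windows), as was TGATGNAAT, the composite site of ATF4 and C/EBP factors (0.965%). A match describes letters in this window and does not show binding. Of 14 windows of ER chaperone genes, 7 held the ER stress element, against 0 of 49 windows of other ERAD genes. These windows covered 14 of the 17 chaperone genes and 39 of the 49 other ERAD genes listed.

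**Figure D1:**
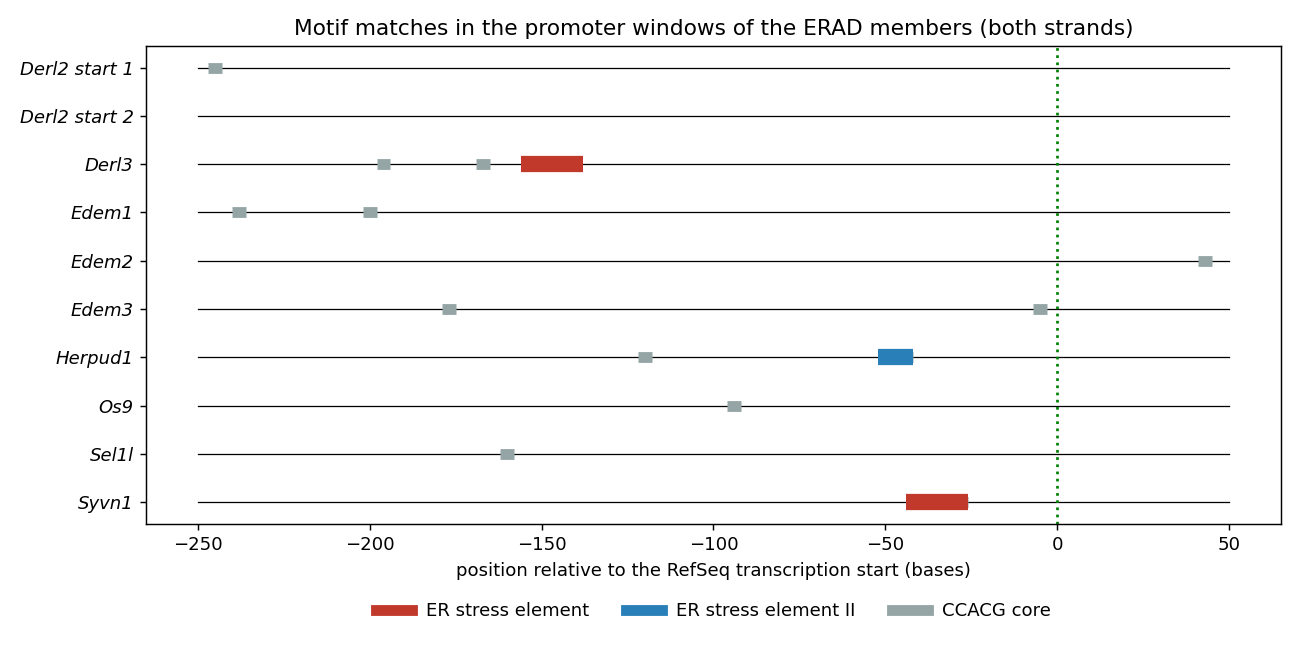
Positions of motif matches in the 10 promoter windows of 9 members, on the x axis in bases relative to the RefSeq transcription start (dotted line). Coloured blocks mark the ER stress element in Derl3 and Syvn1 and the ER stress element II in Herpud1, and grey blocks the CCACG core on either strand, drawn beneath the elements that contain it.

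Total counts ranged from 17256339 to 20776539 per library. All 10 genes passed the filter on low counts, although Derl3 was at or above its limit of 0.539 CPM (counts scaled to a common library size) in 3 of 3 CKO and only 2 of 3 CTRL libraries, and so passed through the CKO libraries. Ufl1 itself was at 34.9, 35.6 and 38.8 CPM in CKO 1 to 3, against 57.9, 47.0 and 46.1 CPM in CTRL 1 to 3 (log2 fold change -0.47, SE 0.14; edgeR quasi-likelihood test, adjusted p = 0.778). Every CKO library lay below every CTRL library, while the part of cells without Cre, or of exons outside the deletion, in the remaining counts was not tested. Of the markers of skin, Krt14 was at 2670 to 3485 CPM in CKO and 1159 to 4560 CPM in CTRL, and the dermal collagen gene Col1a1 at 5420 to 5539 CPM in CKO and 2394 to 4885 CPM in CTRL. Mitochondrial transcripts took 4.59% of the counts in CTRL 1 and 2.28% to 2.97% in the other 5 libraries.

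Per length, the members differed widely in level. Over the 6 libraries, mean FPKM (counts scaled by gene length and library size) ran from 64.7 for Herpud1 and 51.2 for Os9 through 41.1 for Derl1, 21.0 for Sel1l, 16.2 for Edem3, 15.2 for Edem1, 13.1 for Syvn1, 9.13 for Edem2 and 7.59 for Derl2 to 0.949 for Derl3. The ranges of FPKM over libraries were apart at 2 of the 9 steps in this order, below Derl1 and below Derl2. At the other 7 steps the ranges of neighbours overlapped, and at 3 of these (Herpud1 above Os9, Sel1l above Edem3, Syvn1 above Edem2) the order was still the same in 6 of 6 libraries. Derl3 was the scarcest of the 10 transcripts in all 6 libraries.

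Comparing CKO with CTRL asks which ERAD transcripts differ in skin whose keratin 14 lineage carries the Ufl1 deletion. All 10 members had a positive log2 fold change, beside 47.8% of the 17318 genes tested, and their median was 0.22, beside -0.01 for all genes. The sign of Edem3 and Sel1l, both near 0, was not stable, since Edem3 was negative without CTRL 2 and both were negative in limma-voom with quality weights. None of the 10 passed the two-sided edgeR test at an adjusted p under 0.05, which 0.0173% of all genes did. In DESeq2 1 member, Derl3, was called higher, beside 0.387% of all genes. At an unadjusted p under 0.05 in edgeR, 3 members were higher (Derl3, Edem1 and Edem2), beside 3.38% of all genes. In 4 members (these 3 and Derl1) every CKO library lay above every CTRL library, which was the case for 5.73% of all genes. Without CTRL 3 this held for 7 members and for 9.54% of all genes. In whole skin, more transcript per cell and more cells of a type that carries it cannot be told apart.

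**Figure D2:**
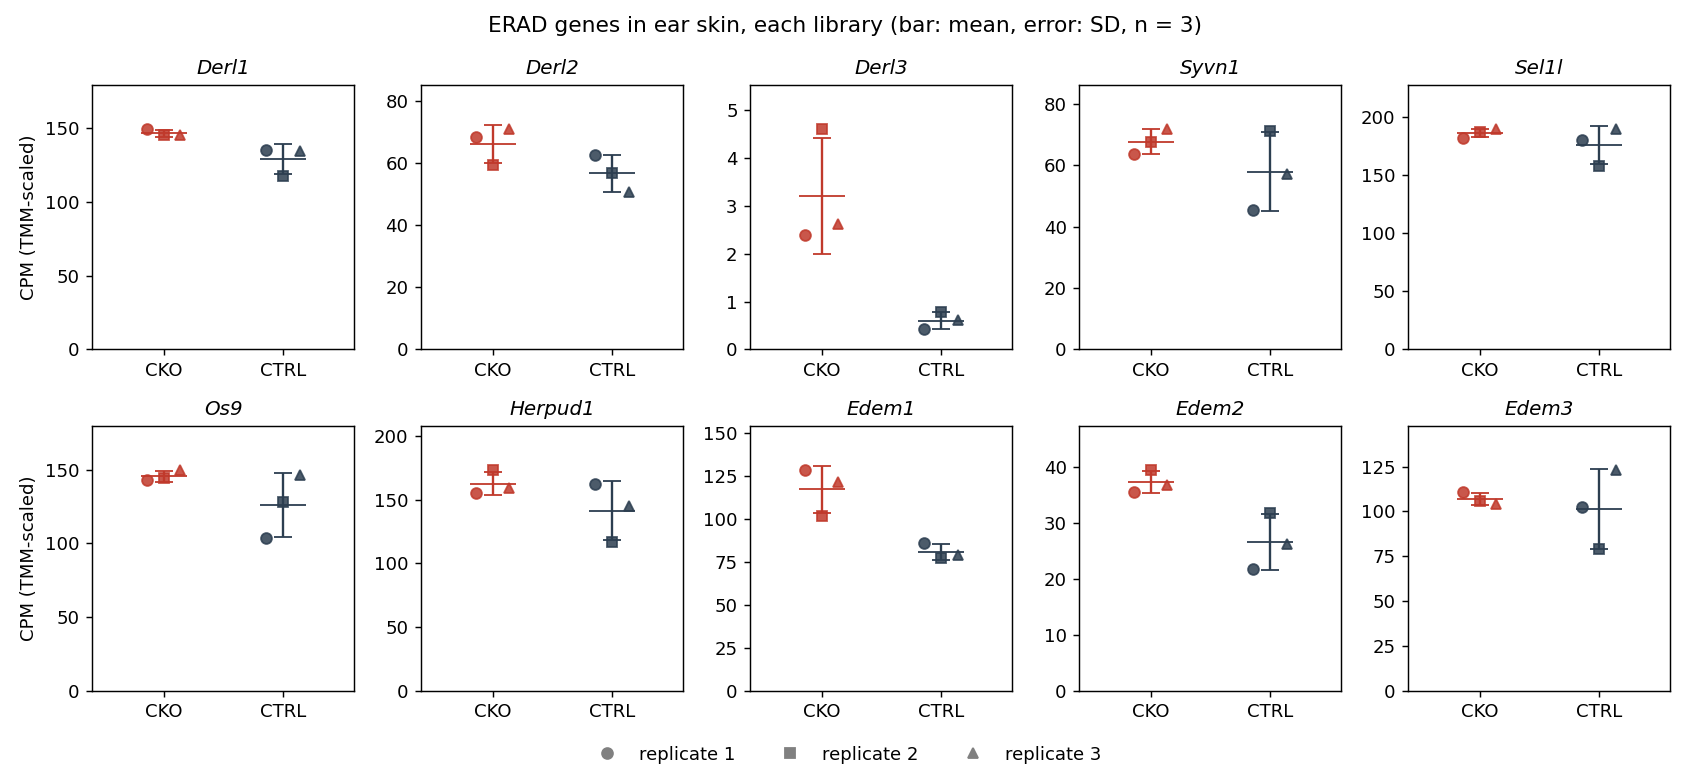
Level of each ERAD gene in TMM-scaled CPM (y axis, from 0) in the 3 CKO and 3 CTRL libraries; symbols mark replicates, horizontal bars the mean and error bars the SD (n = 3). CKO libraries lay above all CTRL libraries for Derl1, Derl3, Edem1 and Edem2, and the groups overlapped for the other 6 genes.

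Among the derlins, the scarce family member showed the largest difference. Derl3 (ENSMUSG00000009092, chromosome 10, 75893413 to 75895941, mm10), which in mice is abundant in secretory tissues, had 43, 83 and 50 counts in CKO 1 to 3 against 7, 15 and 13 counts in CTRL 1 to 3. These are 2.40, 4.61 and 2.62 CPM in CKO and 0.418, 0.773 and 0.614 CPM in CTRL, so the groups were far apart and CKO 2 was the highest library. The log2 fold change was 2.39 (SE 0.42), a 5.25-fold difference, and the edgeR test gave an adjusted p of 0.309 (0.000432 unadjusted). The ratio of summed counts, 176 in CKO against 35 in CTRL per effective library size, was 5.24, with an exact 95% interval of 3.63 to 7.76 that covers counting error only. DESeq2 gave an adjusted p of 0.000697, and the adjusted p in the authors' deposited table was 0.00114 with a log2 fold change of 2.41. By edgeR p-value Derl3 ranked 23 among all genes tested.

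Derl1 (chromosome 15, 57869502 to 57892448), the most abundant derlin, was at 149, 145 and 145 CPM in CKO 1 to 3, against 135, 118 and 134 CPM in CTRL 1 to 3. The groups did not overlap, but the difference was small, with a log2 fold change of 0.18 (SE 0.12) and an adjusted p of 0.981 in edgeR. Derl2 (chromosome 11, 71007164 to 71019841) was at 68.5, 59.4 and 71.1 CPM in CKO, against 62.6, 57.0 and 50.7 CPM in CTRL, and CKO 2 lay below CTRL 1. Its log2 fold change was 0.23 (SE 0.14; edgeR adjusted p = 0.981). Derl2 overlaps the gene Mis12 on the opposite strand over 231 bases, and whether reads were counted by strand is not stated in the labels. Summed over the family, derlin transcripts came to 53.5 ± 0.495 FPKM in CKO and 45.7 ± 3.24 FPKM in CTRL (SD, n = 3 each). Derl3 made up 2.99 ± 1.17% of that sum in CKO and 0.665 ± 0.238% in CTRL (SD, n = 3 each), so Derl1 remained the bulk of it in both groups, with 81.7 ± 0.549% in CKO and 84.0 ± 1.73% in CTRL.

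None of the 4 genes of the HRD1 ligase complex passed a test, and their groups overlapped. Syvn1, the ubiquitin ligase (chromosome 19, 6046576 to 6053712), was at 63.9, 67.6 and 71.9 CPM in CKO 1 to 3, against 45.5, 71.3 and 57.1 CPM in CTRL 1 to 3. CTRL 2 lay within the CKO range and CTRL 1 far below it, and the log2 fold change was 0.23 (SE 0.17; edgeR adjusted p = 0.997). Syvn1 overlaps Mrpl49 on the opposite strand over 83 bases.
Sel1l, the adaptor (chromosome 12, 91806043 to 91849157), was at 182, 187 and 189 CPM in CKO, against 180, 157 and 190 CPM in CTRL. Only CTRL 2 stood apart from the other 5 libraries, and the log2 fold change was 0.08 (SE 0.13; edgeR adjusted p = 0.997). Os9, the lectin (chromosome 10, 127095650 to 127121131), was at 143, 144 and 150 CPM in CKO, against 104, 128 and 147 CPM in CTRL, with a log2 fold change of 0.21 (SE 0.15; edgeR adjusted p = 0.997).
CTRL 3 lay among the CKO libraries for Os9 and CTRL 1 was lowest. Herpud1 (chromosome 8, 94386438 to 94395377) was at 156, 173 and 159 CPM in CKO, against 162, 117 and 145 CPM in CTRL, with CTRL 1 inside the CKO range. Its log2 fold change was 0.20 (SE 0.15; edgeR adjusted p = 0.997). Together these 4 genes summed to 160.0 ± 5.23 FPKM in CKO and 140.0 ± 10.7 FPKM in CTRL (SD, n = 3 each).

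Among the EDEM genes, the groups were apart for Edem1 and Edem2 and overlapped for Edem3. Edem1 (chromosome 6, 108828641 to 108859356) was at 128, 102 and 121 CPM in CKO 1 to 3, against 85.7, 76.9 and 78.7 CPM in CTRL 1 to 3. All CKO libraries lay above all CTRL libraries, and the log2 fold change was 0.54 (SE 0.13), a 1.46-fold difference, and the edgeR test gave an adjusted p of 0.625 (0.00347 unadjusted). Edem2 (chromosome 2, 155701677 to 155729475) was at 35.6, 39.4 and 36.7 CPM in CKO, against 21.7, 31.7 and 26.2 CPM in CTRL.
The Edem2 groups were apart as well, with a log2 fold change of 0.49 (SE 0.16), and the edgeR test gave an adjusted p of 0.850 (0.0181 unadjusted). Edem3 (chromosome 1, 151755371 to 151822051) was at 111, 106 and 104 CPM in CKO, against 102, 78.8 and 123 CPM in CTRL. Its CTRL libraries lay on both sides of the CKO libraries, and the log2 fold change was 0.08 (SE 0.17; edgeR adjusted p = 0.997). EDEM transcripts summed to 45.3 ± 1.79 FPKM in CKO and 35.7 ± 3.00 FPKM in CTRL, and Edem1 made up 39.7 ± 3.15% of the sum in CKO and 34.7 ± 3.14% in CTRL (SD, n = 3 each). In the authors' deposited table the adjusted p was 0.184 for Edem1 and 0.645 for Edem2.

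With 3 libraries in each group no exact permutation p can go below 0.1. The two-sided test of the CPM reached this value for Derl1, Derl3, Edem1 and Edem2, and 0.2 to 0.7 for the other 6 members. Any gene whose groups are apart reaches 0.1, so this restates the separation given above. Among the 17318 genes tested, 992 were apart and higher in CKO and 833 apart and lower. Whether members of a family differed from each other in their response was tested on the log2 ratio of their CPM within each library, over 9 pairs. The log2 ratio of Derl3 to Derl1 was -5.53 ± 0.509 in CKO and -7.54 ± 0.474 in CTRL (SD, n = 3 each), a difference of 2.01, and that of Derl3 to Derl2 differed by 1.97. In both pairs all CKO libraries lay above all CTRL libraries, with an exact permutation p of 0.1 and a Benjamini-Hochberg adjusted p of 0.45 over the 9 pairs. Derl3 was apart on its own and passed the filter through the CKO libraries, so both ratios mostly restate its values. The ratio of Edem1 to Edem3 differed by 0.43 (exact p = 0.2, adjusted p = 0.6) and that of Edem2 to Edem3 by 0.40 (exact p = 0.4, adjusted p = 0.9), with overlapping groups. Edem1 over Edem2 (0.03), Derl2 over Derl1 (0.04), Syvn1 over Os9 (0.03), Syvn1 over Sel1l (0.16) and Sel1l over Os9 (-0.13) overlapped between the groups as well.

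Like most genes of the table, most members were more even among the CKO than among the CTRL libraries. The coefficient of variation of the CPM was lower in CKO for 8 of 10 members, beside 71.1% of all genes tested, with a median of 5.46% in CKO and 16.7% in CTRL (all genes, 12.0% and 20.9%). The exceptions were Derl3 and Edem1. Within the CTRL group the genes fell on different sides. CTRL 2 held the lowest value of Derl1, Herpud1, Sel1l, Edem1 and Edem3, while CTRL 1 held the lowest value of Derl3, Syvn1, Edem2 and Os9. After removal of the group means, log2 CPM over the 6 libraries had a Pearson r of 0.93 between Sel1l and Edem3 and of 0.95 between Syvn1 and Edem2. It was -0.89 between Herpud1 and Syvn1 and lowest, at -0.97, between Derl3 and Edem1. Across all 45 pairs the median was -0.23, where 4 degrees of freedom remain and all genes share the same libraries, so these values only describe.

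**Figure D3:**
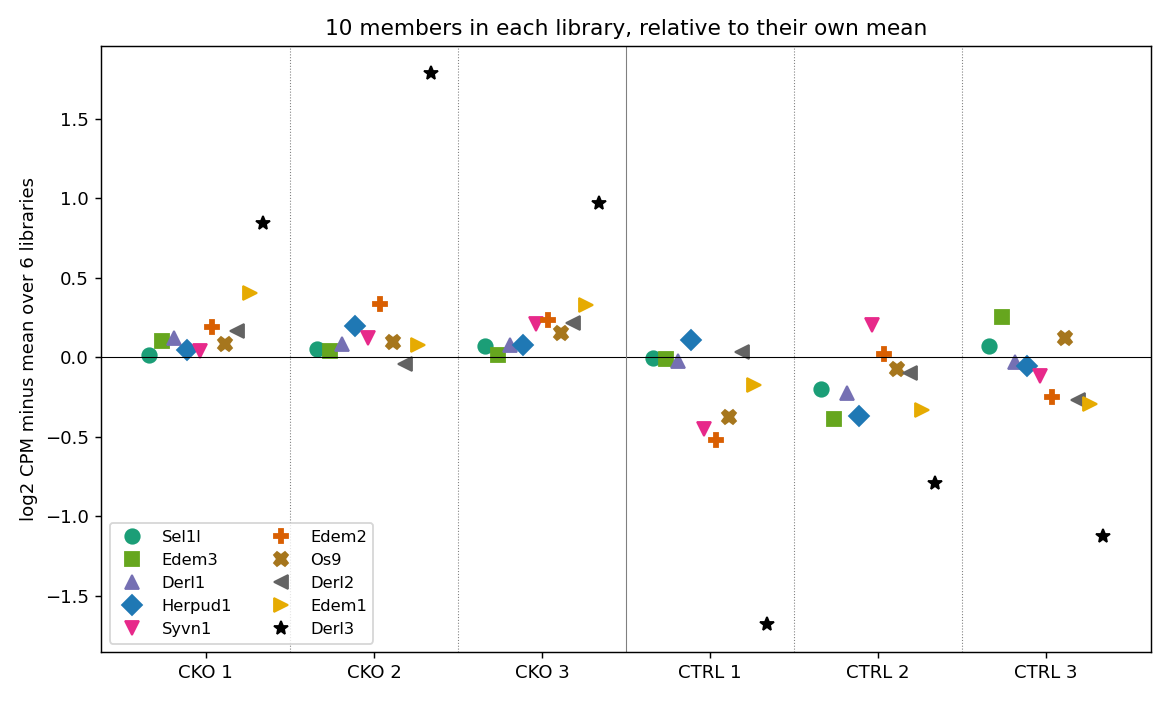
Log2 CPM of the 10 members, with no prior count added, minus each gene's mean over the 6 libraries (y axis) in CKO 1 to 3 and CTRL 1 to 3 (x axis). Derl3 spreads widely in both groups and lies above its mean in all 3 CKO libraries, CTRL 1 is low for Syvn1, Edem2 and Os9, and CTRL 2 is low for Sel1l, Edem3, Derl1 and Herpud1.

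Markers of cell types differed between the same libraries. The 6 fibroblast markers summed to 20430 to 21660 CPM in CKO and to 25370, 9655 and 15560 CPM in CTRL 1 to 3, and the 7 basal keratinocyte markers to 5408 to 7212 CPM in CKO and to 3354, 11590 and 5234 CPM in CTRL 1 to 3. Melanocyte markers were apart and higher in CKO in all 6 genes listed, beside 5.73% of all genes tested. They summed to 164, 179 and 250.2 CPM in CKO 1 to 3, against 41.8, 46.1 and 59.4 CPM in CTRL 1 to 3. The 5 Schwann cell markers summed to 460, 545 and 673 CPM in CKO, against 679, 1113 and 776 CPM in CTRL. None of these markers was at 0 in all libraries. The part of this in the member values was not tested. Because Derl3 is abundant in secretory cells, markers of plasma cells and salivary acini were examined beside it. The 9 plasma cell markers summed to 341 to 404 CPM in CKO and 294 to 352 CPM in CTRL, of which the keratinocyte-expressed Sdc1 took 301 to 344 CPM in CKO and 232 to 326 CPM in CTRL. Jchain was at 0.0557 to 0.576 CPM in CKO and 0.103 to 0.537 CPM in CTRL, and Mzb1 at 0.209 to 0.557 CPM in CKO and 0.358 to 0.619 CPM in CTRL, so both were near 0 and overlapped. Ighm, which B cells also express, was at 31.0 to 56.2 CPM in CKO and 23.0 to 56.5 CPM in CTRL. The 5 tested plasma cell markers all had positive log2 fold changes, from 0.01 for Ighm to 0.51 for Igha (SE 0.76) and 0.55 for Igkc (SE 1.07), with overlapping groups and 0 at p under 0.05 in edgeR before adjustment. Igha had 3, 19 and 51 counts in CKO 1 to 3 and Igkc 6, 3 and 31, so CKO 3 was highest for both. Of the markers not tested, Mzb1, Pou2af1 and Cd79a had lower mean CPM in CKO (0.330, 0.0906 and 0.273) than in CTRL (0.499, 0.194 and 0.579). Jchain was higher, at 0.322 CPM in CKO and 0.276 CPM in CTRL. The 9 salivary acinar markers summed to 29.4 to 37.7 CPM in CKO and 21.2 to 40.1 CPM in CTRL, with 5 of them (Pip, Prol1, Dcpp1, Smr3a and Prb1) at 0 in every library. Of the 4 that were tested, the CKO libraries of Aqp5 and Cldn10 lay above all CTRL libraries, which was the case for 5.73% of all genes tested. Aqp5, a water channel, was at 13.04, 8.83 and 6.97 CPM in CKO 1 to 3, against 3.58, 4.64 and 6.19 CPM in CTRL 1 to 3, with a log2 fold change of 0.996 (SE 0.31) and an edgeR adjusted p of 0.811 (0.013 unadjusted). Cldn10, a tight junction gene, had a log2 fold change of 0.43 (SE 0.26; edgeR adjusted p = 0.981). The groups overlapped for the other tested acinar markers, Amy1 (log2 fold change -0.37, SE 0.29) and Bpifa2 (0.42, SE 0.79). The part of these secretory cell markers in the Derl3 values was not tested.

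The rest of the degradation pathway was compared through 49 other ERAD genes, all of them measured. Their median log2 fold change was 0.05, with 27 positive and 22 negative, and 0 passed edgeR or DESeq2. At an unadjusted p under 0.05 in edgeR 1 was higher, beside 3.38% of all genes tested, and 0 lower. In 5 of 49 the CKO libraries lay above all CTRL libraries, beside 5.73% of all genes tested. The gene at that p was Hm13 (H13 in the deposited table), the intramembrane signal peptide peptidase, at 169, 173 and 189 CPM in CKO and 120, 132 and 132 CPM in CTRL (log2 fold change 0.47, SE 0.12; adjusted p = 0.650 in edgeR). Log2 fold changes were 0.28 (SE 0.13) for Txndc11, an ER thioredoxin-like protein that works with EDEM proteins, and 0.22 (SE 0.12) for Selenos, a selenoprotein that links derlins to the ATPase VCP. The ubiquitin ligase genes Rnf185 and Tmem129 were at 0.19 (SE 0.13) and 0.26 (SE 0.18), and Ube2g2, a ubiquitin-conjugating enzyme of the pathway, at -0.16 (SE 0.13). The 31 proteasome subunit genes had a median of 0.01, between -0.15 and 0.14, and 0 passed in edgeR at an adjusted or an unadjusted p under 0.05 or in DESeq2.

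Upstream of the degradation genes, the ER chaperones differed more. Over 17 chaperone genes the median log2 fold change was 0.72, and 9 were higher in DESeq2, beside 0.387% of all genes tested. In edgeR 0 passed, and 13 were higher at an unadjusted p under 0.05, beside 3.38% of all genes tested. The chaperone Hspa5 (BiP) was at 1.15 (SE 0.15; edgeR adjusted p = 0.105), and its partner Sdf2l1 at 1.50 (SE 0.23; edgeR adjusted p = 0.218), so Derl3 at 2.39 lay above and the other 9 members at 0.54 or less lay below both. Of 15 regulators of the response, 14 were tested (Ern2 was at 0), 13 were positive, beside 47.8% of all genes tested, and the median was 0.28. At p under 0.05 before adjustment in edgeR 3 were higher in CKO, beside 3.38% of all genes tested (Xbp1, Bhlha15 and Hspa5, the last counted among the chaperones too). The gene of XBP1, Xbp1, was at 268, 263 and 277 CPM in CKO, against 223, 222 and 195 CPM in CTRL, with a log2 fold change of 0.33 (SE 0.13), and the edgeR test gave an adjusted p of 0.888 (0.0333 unadjusted). The genes Atf6 (0.28, SE 0.15), Atf6b (0.29, SE 0.16), Atf4 (0.28, SE 0.17) and Ddit3 (0.19, SE 0.15) and the sensor gene Ern1 (-0.08, SE 0.16) had log2 fold changes with an edgeR adjusted p of at least 0.97. Bhlha15, a transcription factor of secretory cells, rose with an adjusted p of 0.0295 in edgeR, to 38, 60 and 55 counts in CKO 1 to 3 against 1, 2 and 2 counts in CTRL 1 to 3. Its CTRL libraries were all under the limit of the filter, so it passed through the CKO libraries, and the adjusted p was 0.0665 to 0.337 in edgeR when any 1 library was left out and 0.0561 in limma-voom. Set beside the promoter sequences above, the members with an exact element had log2 fold changes of 2.39 (Derl3), 0.23 (Syvn1) and 0.20 (Herpud1), against 0.54 (Edem1), 0.49 (Edem2), 0.23 (Derl2), 0.21 (Os9), 0.08 (Sel1l) and 0.08 (Edem3) in the 6 members with none in their windows. Derl3 lay above the range of the members without an element, and Syvn1 and Herpud1 lay within it. Derl1 had no window, and the part of an element in these values was not tested.

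**Figure D4:**
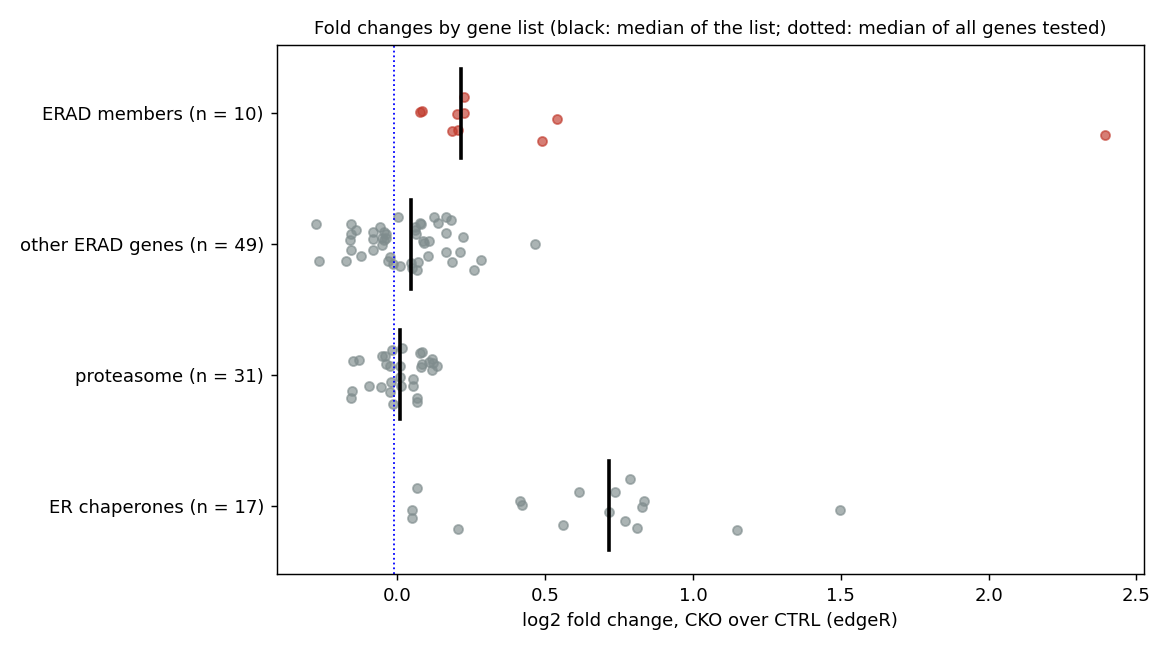
Log2 fold change of CKO over CTRL (x axis) for each gene of 4 lists, with the median of the list as a black bar and that of all genes tested as a dotted line. The medians were 0.22 for the 10 ERAD members, 0.05 for 49 other ERAD genes, 0.01 for 31 proteasome genes and 0.72 for 17 ER chaperones, and Derl3 is the point at 2.39.

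The genes whose profile was most like the mean of the members were sought among 12675 genes with a mean of at least 5 CPM. That mean was taken over centred log2 CPM not scaled to equal spread, so Derl3, with the largest difference, weighed most in it. By Pearson r over the 6 libraries, which separate by group and therefore favour any gene that differs between them, the 5 nearest were Slc35a4 (0.99), Plin2 (0.99), Trpm1 (0.98), Yif1a (0.98) and Hm13 (0.98). Slc35a4 belongs to the nucleotide sugar transporter family, Plin2 coats lipid droplets, Trpm1 is a cation channel of melanocytes and Yif1a acts in transport from ER to Golgi. Their log2 fold changes were 0.17 (SE 0.11), 0.63 (SE 0.14), 1.80 (SE 0.19), 0.48 (SE 0.12) and 0.47 (SE 0.12), and the adjusted p in edgeR lay between 0.0535 (Trpm1) and 0.981 (Slc35a4).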

How the data were processed

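Per the labels' protocols, total RNA was extracted with TRIzol and 3 µg per sample went into NEBNext Ultra libraries. The submitters' processing notes name HISAT2, HTSeq and mm10 without giving versions. Per the file headers, the deposited table lists raw, whole-number counts and FPKM values in each library. It also holds deposited group means (a signal in scaled counts) and, from a test of the authors that is not named, their log2 fold changes, deposited with a p-value and an adjusted p-value.

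Genes passing filterByExpr (17318 of 54532, with 99.83% to 99.86% of each library's counts) were tested with the edgeR 4.0.16 quasi-likelihood test in R 4.3.3 (TMM scaling, robust estimates, no covariates), with Benjamini-Hochberg adjustment over all of them and a threshold of 0.05. SE was derived from the quasi-likelihood F statistic. CPM are TMM-scaled, and log2 CPM used a prior count of 2. DESeq2 1.42.0 and limma 3.58.1 were alternatives. The tests were also run on simulated counts with planted changes, and the share recovered is not given here. After removal of the group means, same-numbered libraries of the groups had r = 0.216, -0.0431 and -0.038, beside -0.161 to 0.185 for libraries with different numbers. With 3 libraries per group this cannot exclude pairing. The labels state no covariate, so the numbers were not taken as pairs. Promoter sequences are from RefSeq (GRCm38.p6), the assembly that mm10 names. For 2 list symbols the table's older symbol was used.

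The members and gene lists were chosen with earlier results of these data known. Named genes are the members, Ufl1, Hspa5, Xbp1, Atf6, Ern1, Atf4, Ddit3, Bhlha15, up to 6 genes of each list with the smallest p, and the 5 with the most similar profile. Marker genes named outside this rule were chosen after their values were seen.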

Additional observations from a re-analysis of the deposited data

How the results depend on the processing

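Of 170 member log2 fold changes under alternatives, 167 kept their direction. The exceptions were Sel1l (-0.0014) and Edem3 (-0.10) in limma-voom with quality weights and Edem3 without CTRL 2, where leaving out each library gave -0.074 to 0.24. Derl3 passed the threshold in DESeq2, where its adjusted p lay between 0.00253 and 0.0412 when each library was left out (a comparison chosen after seeing the data), and in edgeR with no filter beyond 1 count (adjusted p = 0.0349), so 1 member was called in each. In the main edgeR test the adjusted p of Derl3 was 0.317 to 0.997 when each library was left out. In limma-voom it was 0.446, and 0.0883 with quality weights, so Derl3 was not called there. On log2(FPKM + 1) its log2 difference was 0.98. The median over the members stayed between 0.18 and 0.26. The 3 genes called over the whole table became 25 with no filter, 91 in DESeq2, 0 in limma-voom (26 with quality weights), 0 on both FPKM scales and 12 with the replicate number as a block, where 0 members were called; leaving out each library gave 0 to 4. The cause was not tested. The 4 members with groups apart became 4 to 7 when each library was left out, with 7 without CTRL 3, beside 7.61% to 14% of all genes tested in the same settings (5.73% with all libraries). Unadjusted p under 0.05 held for 2 to 4 members. The share of all genes higher in CKO at this threshold was 3.38% in the main edgeR test and was not counted in the alternatives.

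Of 72 differences between members within libraries, 9 reversed when a library was left out, none with Derl3. They were Derl2 over Derl1 (-0.070 without CTRL 3 to 0.11, negative also without CKO 3), Edem1 over Edem2 (-0.13 without CTRL 2 to 0.21, negative also without CKO 1 or CKO 3), Syvn1 over Sel1l (-0.024 without CTRL 1 to 0.40), Syvn1 over Os9 (-0.086 without CTRL 3 to 0.17, negative also without CTRL 1) and Sel1l over Os9 (-0.23 to 0.023, positive without CTRL 1). In the 200 bases before the start the ER stress elements were found in the same number of windows, and the CCACG core in 6. With 7 to 15 counts per CTRL library, depth limits the precision of Derl3.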
